A study of Mus musculus with 2 samples.

Results

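The genes described here encode the subunits, assembly factors and activators of the proteasome. They were chosen by name: every protein-coding gene whose symbol in GENCODE M21 starts with Psm, a letter from a to g and a digit. The rule found 50 genes among 47643 gene IDs in the count files, 21620 of them protein-coding. Pseudogenes with such names were left out. Of the 50 genes, 14 encode the standard core particle, 3 the immunoproteasome, 9 the base, 8 the lid, 5 the activators and 7 the assembly chaperones. The other 4 are Psma8, Psmb11, Psmf1 and Psmc3ip. Psmc3ip matched by symbol only, since its product is a cofactor of meiotic recombination and no part of the proteasome.

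Messenger RNA was sequenced from E14 mouse embryonic stem cells of the 129/Ola background in which Ago1 and Ago2, genes of the microRNA pathway, are labelled as knocked out together. The only group consisted of 2 libraries of this genotype, named replicate 1 and replicate 2, from cells grown in 15% serum with 100 U/mL of the cytokine LIF on 0.2% gelatine. The cell line had been derived from blastocysts. No sample with intact Ago1 and Ago2 was used, and nothing below measures what their loss does. Separate cultures or clones are not named for the replicates, so whether their spread is technical only is not known.

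The proteasome is the protease that degrades proteins tagged with ubiquitin. Its barrel-shaped core particle is built of alpha rings, which gate the entrance, and beta rings, which hold the protease sites of Psmb5 (chymotrypsin-like), Psmb6 (caspase-like) and Psmb7 (trypsin-like). The regulatory particle has a base with ATPases that unfold substrates and a lid that removes ubiquitin. Interferon-gamma induces Psmb8, Psmb9 and Psmb10, which take the places of Psmb5, Psmb6 and Psmb7 to form the immunoproteasome, and also the activator genes Psme1 and Psme2; both serve the supply of peptides to MHC class I. Pluripotent stem cells are known for high proteasome activity.

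The promoters of 4 members on which the results below turn are shown, as RefSeq gives them on GRCm38.p6, 5′ to 3′ on the gene's strand and trimmed to bases before the start that carry no annotated exon. Psmb5 and Psmb6 are shown as standard catalytic genes whose windows hold an antioxidant response element, the site read by NFE2L1, a transcription factor known to activate proteasome genes. Psmd14 and Psme2 are shown as members that were higher and lower in replicate 2. Capitals mark TGACNNNGC in Psmb5 and Psmb6 and the inverse of CCAAT in Psmd14, and neither stood in the bases shown of Psme2. The windows of Psmb8 and Psmb9 lay wholly in annotated exons and are not shown.
Psmb5, chr14:54618023-54618245, minus strand: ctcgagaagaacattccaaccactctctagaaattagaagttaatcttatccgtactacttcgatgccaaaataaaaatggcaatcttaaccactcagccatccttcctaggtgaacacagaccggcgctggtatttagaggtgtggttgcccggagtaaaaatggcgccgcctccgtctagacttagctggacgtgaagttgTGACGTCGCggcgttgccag
Psmb6, chr11:70525107-70525356, plus strand: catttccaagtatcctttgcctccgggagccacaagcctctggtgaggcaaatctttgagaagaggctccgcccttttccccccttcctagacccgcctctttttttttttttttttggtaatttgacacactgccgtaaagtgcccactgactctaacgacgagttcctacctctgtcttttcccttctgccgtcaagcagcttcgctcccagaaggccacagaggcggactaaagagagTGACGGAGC
Psmd14, chr2:61711444-61711693, plus strand: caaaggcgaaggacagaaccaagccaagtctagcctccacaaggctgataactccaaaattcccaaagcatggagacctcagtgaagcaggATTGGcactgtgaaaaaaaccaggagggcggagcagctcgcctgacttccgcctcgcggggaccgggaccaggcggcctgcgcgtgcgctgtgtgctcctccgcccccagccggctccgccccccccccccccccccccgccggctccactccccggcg
Psme2, chr14:55591114-55591351, minus strand: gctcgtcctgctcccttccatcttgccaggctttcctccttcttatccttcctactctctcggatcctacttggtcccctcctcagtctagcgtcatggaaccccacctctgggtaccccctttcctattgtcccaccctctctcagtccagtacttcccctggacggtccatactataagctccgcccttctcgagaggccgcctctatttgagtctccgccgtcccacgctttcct

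In the RefSeq windows from 250 bases before to 50 bases after a start, of which 42 members had 45, the matches on either strand were spread over the groups. TGACNNNGC was found in 6 of 42 members, or 13.3% of their windows against 12.4% of all 32851 windows, namely in Psmb5, Psmb6, Psmc6, Psmd9, Psmd12 and Psme4. CCAAT, the box bound by NF-Y, was in 33.3% of member windows against 37.4% of all, and in 6 of 11 core particle genes with a window. The interferon-stimulated response element (TTTC, any pair of bases, TTTC) was in 11.1% against 3.44%, in Psmb3, Psmd4, Psmd9, Psmg4 and, as TTTCGCTTTC from base 10 after the start, in Psme1. TTCNNNGAA, the gamma-activated site, was in 6.67% against 8.30%, and Psmb8 held it as TTCCCAGAA from base 97 before the start. None of the 3 immunoproteasome windows held the interferon-stimulated element. Matches of different motifs did not overlap in the member windows. A match is a description of these letters, not a bound site.

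Depth was 34798975 counts over all genes for replicate 1 and 29789560 for replicate 2, and the 50 members took 0.621% of them in each. Levels are given as CPM, counts per 1000000 counts of the library, or as TPM, which also divides by the summed exon length of the gene and so allows levels of different genes to be compared. Of the targeted genes, Ago1 stood at 70.8 and 141 CPM in replicates 1 and 2 and Ago2 at 124 and 129 CPM. The log2 ratio of Ago1 was 0.99 ± 0.04 and passed edgeR's exact test (adjusted p = 1.37e-08). Counts summed over all exons check no edited allele. All 7 pluripotency markers reached 1 CPM, with Pou5f1, which encodes Oct4, at 1421 and 1329 CPM. Of 7 fibroblast markers 3 reached 1 CPM (30.7 and 29.4 CPM summed, Col3a1 and Lum at 0), and of 8 immune markers also 3 (78.2 and 87.2 CPM summed, mostly Laptm5 with 64.1 and 75.6 CPM; Lyz2 and Tyrobp at 0). Primitive endoderm markers summed to 2.15 and 1.58 CPM and trophoblast markers to 1.70 and 1.21 CPM. In such bulk RNA, fewer cells that express a gene and less of its RNA per cell cannot be told apart.

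The genes of the standard proteasome were present at high levels throughout, whereas those of its immune, thymic and testis forms were low beside them. At least 1 CPM in both libraries was reached by 47 of 50 members, against a background of 58.0% of protein-coding genes, and the exceptions were Psmb8, Psmb9 and Psmb11. The median log2(TPM + 1) was 7.50 ± 0.0035 (SD, n = 2) for the core particle, 7.48 ± 0.06 for the base, 6.84 ± 0.05 for the lid, 6.50 ± 0.09 for the activators, 5.31 ± 0.00039 for the assembly chaperones and 0.98 ± 0.36 for the immunoproteasome. The core particle and the base differed by less than the spread of the base between the libraries. Every other step in this order exceeded the spread. For scale, the median over all protein-coding genes was 2.02 ± 0.06, and over those at 1 CPM or more it was 4.20 ± 0.02. TPM depends on the length used: exons of rare isoforms lengthen some genes, and with the length of the principal transcript in its place 13 of 50 members moved by more than 1.5 times. Such values are given below as principal-length TPM. With them the median log2(TPM + 1) of the core particle (8.07 ± 0.02) exceeded that of the base (7.70 ± 0.03) by more than the spread.

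**Figure D1:**
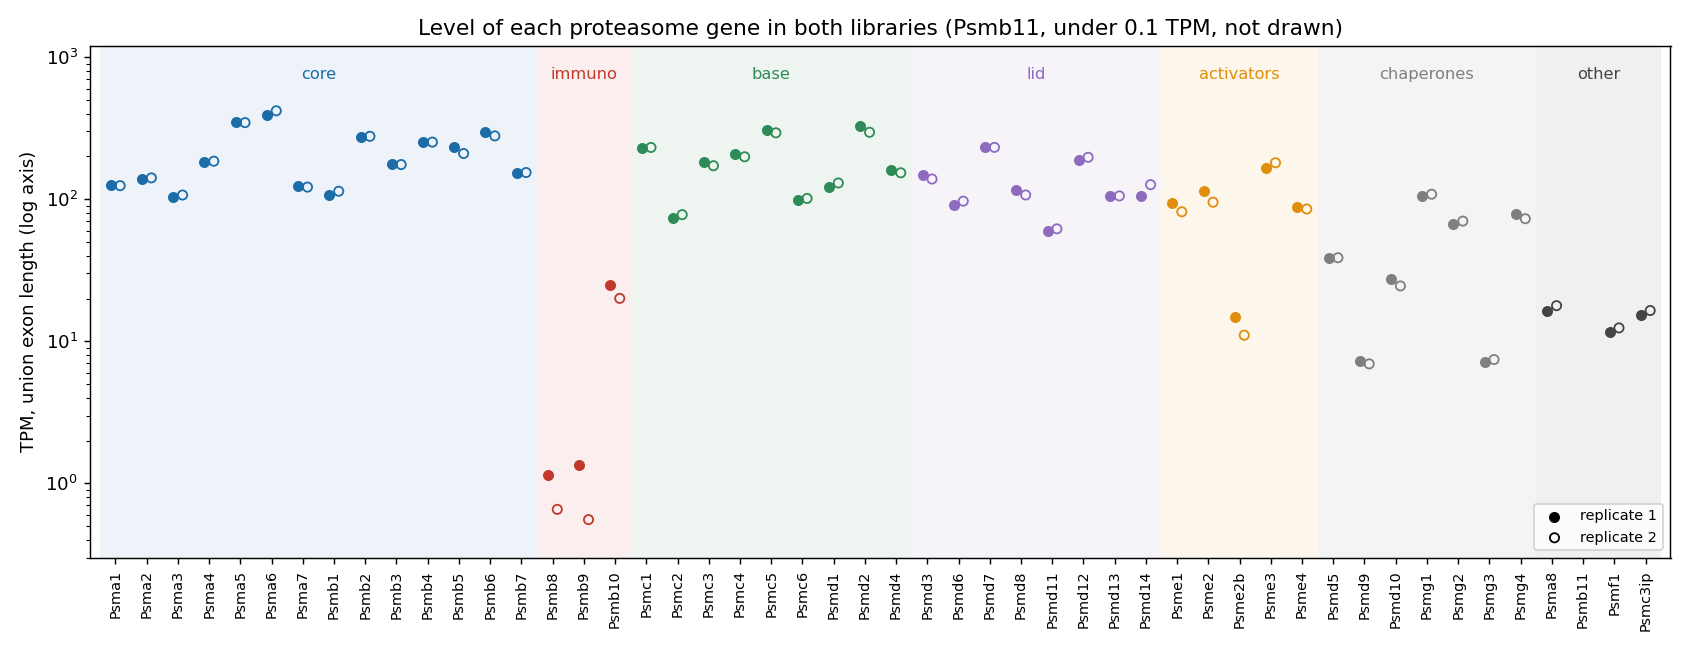
Level of each proteasome gene in replicate 1 (filled) and replicate 2 (open) in TPM on a log axis, with genes grouped and coloured by role. Core, base and lid genes lie between about 60.9 and 405 TPM as means of the libraries, while Psmb8 and Psmb9 lie near 1 TPM; Psmb11 is not drawn.

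The 14 genes of the standard core particle spanned a 3.85-fold range in mean TPM, between the 3.83-fold range of the lid and the 4.10-fold range of the base. By principal-length TPM they spanned 4.70-fold, against 2.71-fold for the base and 2.44-fold for the lid. In the alpha ring, whose Psma subunits form the gate, the means ran from 105 TPM for Psma3 to 405 TPM for Psma6, a 3.85-fold range. Psma6 had 391 and 419 TPM in replicates 1 and 2, Psma5 had 348 and 346 TPM, and Psma3 had 103 and 107 TPM. The libraries of these genes did not overlap, so this order held in each. Psma4 had 182 and 185 TPM and Psma2 139 and 141 TPM. Psma1 (125 and 125 TPM) and Psma7 (124 and 122 TPM) were close to each other. The order depended on length: by principal-length TPM the range was 3.34-fold, with Psma6 (337 ± 17.9) still highest, Psma7 (290.3 ± 3.07) next and Psma3 (101 ± 3.02) still lowest. Of the Psma5 sequence, 49.96% of 50-base stretches recur in other genes, so its level is uncertain.

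The beta subunits without protease activity had a median log2(TPM + 1) of 7.73 ± 0.0038, above the 7.14 ± 0.01 of the alpha ring by more than the spread between the libraries. With the principal length the medians were closer, at 8.14 ± 0.01 and 8.03 ± 0.0031. Psmb2 had 274 and 277 TPM, Psmb4 251 and 252 TPM, Psmb3 177 and 175 TPM and Psmb1 107 and 114 TPM. By principal-length TPM Psmb3 was the highest of them, at 372 ± 1.66, and Psmb1 the lowest, at 202 ± 10.2. Of the catalytic genes, Psmb6 had 298 and 279 TPM, Psmb5 233 and 210 TPM, and Psmb7 154 and 154 TPM. Psmb6 was thus the highest and its libraries did not overlap those of the others. By principal-length TPM it stood at 475 ± 20.2, followed by Psmb7 at 319 ± 1.45 and Psmb5 at 156 ± 11.0, so the order of Psmb5 and Psmb7 rested on the length. Psmb5 also shares 54.1% of its 50-base stretches with other genes, and 11.8% of the Psmb7 exons overlap those of Nek6 on the other strand.

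In the base, the ring of ATPases encoded by Psmc1 to Psmc6 ranged from 75.9 ± 2.75 TPM for Psmc2 to 299.7 ± 8.88 TPM for Psmc5. Psmc2 had 74.0 and 77.9 TPM and Psmc5 306 and 293 TPM. Between them lay Psmc6 (100.0 ± 1.75 TPM), Psmc3 (177 ± 7.12 TPM), Psmc4 (204 ± 7.53 TPM) and Psmc1 (229.6 ± 2.56 TPM). By principal-length TPM the range of the ring narrowed from 3.95-fold to 2.03-fold, and Psmc6 (110.0 ± 2.32) was the lowest. The scaffold gene Psmd2 had 327 and 296 TPM, the highest of the base in each library, though its range overlapped that of Psmc5. By principal-length TPM it was also the highest of the base, at 299 ± 20.0. In CPM it was the highest of all members, with 478 and 435 CPM. The other scaffold gene, Psmd1, had 122 and 130 TPM, and the ubiquitin receptor gene Psmd4 160 and 153 TPM. Psmd1 stood at 0.406 ± 0.0471 of the level of Psmd2 in TPM and at 0.695 ± 0.0806 in principal-length TPM.

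The lid genes lay somewhat lower, from 60.9 ± 1.40 TPM for Psmd11 to 233 ± 2.05 TPM for Psmd7. Psmd11 had 59.9 and 61.9 TPM, and Psmd7 235 and 232 TPM. Psmd14, which encodes the deubiquitinase of the lid, had 105 and 127 TPM, the widest gap between the libraries in this group. The scaffold-like lid genes Psmd3, Psmd6, Psmd8, Psmd12 and Psmd13 had means from 94.2 TPM (Psmd6) to 193 TPM (Psmd12). By principal-length TPM the lid spanned a 2.44-fold range, from 95.9 for Psmd11 to 234 for Psmd7.

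The immunoproteasome genes were far below their standard partners in each library. Psmb8 (chromosome 17, 34197721 to 34201454, plus strand, GRCm38) had 49 and 24 counts, or 1.15 and 0.656 TPM. Psmb9 (minus strand of chromosome 17, 34181987 to 34187764) was read at 62 and 22 counts, or 1.35 and 0.555 TPM. Psmb10 (minus strand of chromosome 8, 105935735 to 105938444) was read at 533 and 370 counts, or 24.8 and 20.0 TPM. In mean TPM it was 24.8-fold above Psmb8, the lowest of the 3, and 15.6-fold by principal-length TPM. Psmb8 (0.903 ± 0.350 TPM) and Psmb9 (0.950 ± 0.559 TPM) differed by less than their spread. In all 3 genes replicate 1 was the higher library.

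Set against the subunit it replaces, Psmb8 was 202-fold lower than Psmb5 in TPM in replicate 1 and 320-fold lower in replicate 2. Psmb9 was 221-fold and 503-fold lower than Psmb6, but Psmb10 only 6.20-fold and 7.69-fold lower than Psmb7. By principal-length TPM these gaps were 97.5-fold and 154-fold for Psmb8, 192-fold and 436-fold for Psmb9, and 14.1-fold and 17.4-fold for Psmb10. As a share of the TPM of all 6 catalytic genes, the immunoproteasome made up 3.84% in replicate 1 and 3.20% in replicate 2, a mean of 3.52% ± 0.451, most of it from Psmb10. In counts, where an exact Clopper-Pearson 95% interval can be given, Psmb8 made up 1.82% of Psmb8 and Psmb5 counts in replicate 1 (1.352 to 2.404%) and 1.16% in replicate 2 (0.745 to 1.72%). Psmb9 made up 0.875% of its pair (0.672 to 1.12%) and 0.387% (0.243 to 0.586%), and Psmb10 7.44% (6.84 to 8.07%) and 6.09% (5.50 to 6.72%). The intervals of the libraries overlapped for Psmb8 and did not for Psmb9 and Psmb10. They cover counting error only. These shares do not depend on how the libraries are scaled. Of the exons of Psmb9, 5.79% overlap Tap1 and of those of Psmb8 14.7% overlap Gm20496, each on the other strand. Whether strand was used in counting is not stated, so whether the counts keep these pairs apart is not known.

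**Figure D2:**
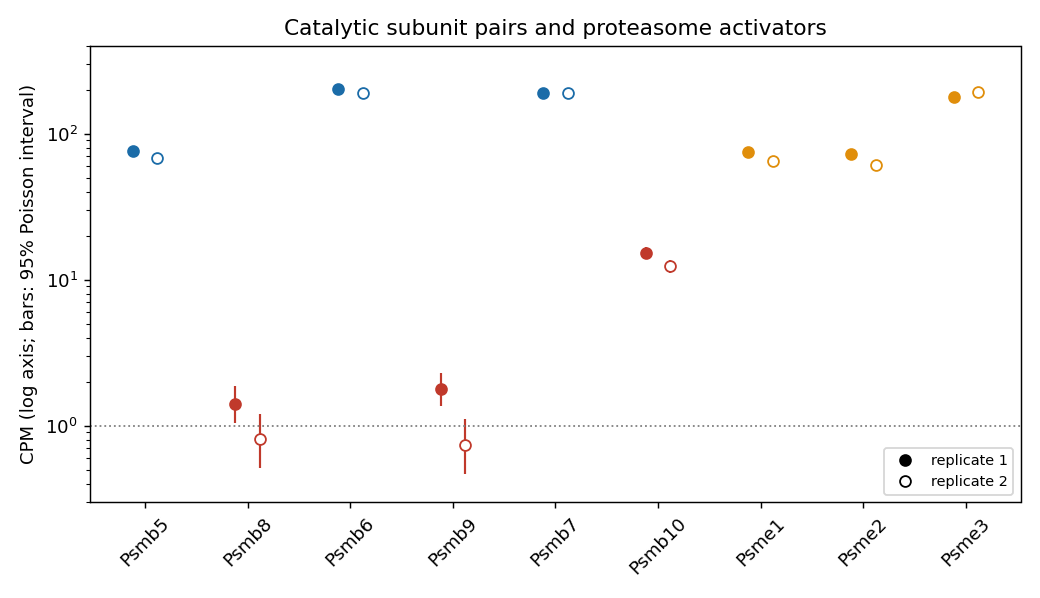
CPM on a log axis of each standard catalytic gene beside its immunoproteasome partner and of 3 activator genes, with 95% exact Poisson intervals, replicate 1 filled and replicate 2 open; the dotted line marks 1 CPM. Psmb8 and Psmb9 lie around 1 CPM, while Psmb5, Psmb6 and Psmb7 lie between 68.6 and 202 CPM.

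The tissue-restricted members differed from each other. Psma8, the alpha subunit of the testis proteasome, which replaces Psma7 in meiotic cells, had 513 and 481 counts, or 16.3 and 17.8 TPM. It was 7.22 ± 0.543-fold below Psma7 in TPM and 16.5 ± 1.24-fold in principal-length TPM. Of 5 male germ line markers 3 reached 1 CPM in both libraries: Sycp3 stood at 14.5 and 17.2 CPM, Stra8 at 21.2 and 6.68 CPM and Sycp1 at 1.70 and 1.75 CPM. Prm1 and Acrv1 were at 0. The log2 ratio of Stra8, replicate 2 to replicate 1, was -1.66 ± 0.12. It passed edgeR's exact test (adjusted p = 2.10e-07), as did 0.456% of all tested genes. The part of these markers in the Psma8 level was not tested. Psmc3ip, the meiotic cofactor gene named above, had 15.2 and 16.5 TPM. Psmb11, the thymus subunit gene that lies beside Psmb5 on chromosome 14, had 1 count in replicate 1 and 0 in replicate 2. At this depth 3 counts equal 0.0862 and 0.101 CPM, so Psmb11 was not detectable.

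The activators bind the ends of the core particle without using ubiquitin. Psme1 (chromosome 14, 55578123 to 55581529, plus strand) had 93.7 and 81.6 TPM, and its partner in a mixed ring, Psme2 (chromosome 14, 55587441 to 55591113, minus strand), 113 and 95.3 TPM. The pair thus stood close together, with Psme1 at 0.841 ± 0.0215 of Psme2. Psme3, whose product forms a nuclear ring of its own, had 166 and 181 TPM and was 1.99 ± 0.311-fold above Psme1; by principal-length TPM the factor was 1.11 ± 0.173, within its spread of equal levels. Psme4, which encodes the large activator of spermatid and nuclear proteasomes, had 88.1 and 85.3 TPM. Psme2b, a near copy of Psme2 with 69.3% of its 50-base stretches found elsewhere, had 14.7 and 11.0 TPM, and its reads cannot be told apart safely from those of Psme2. Psmf1, which encodes an inhibitor of the core particle, had 11.6 and 12.4 TPM.

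As a group median, genes for assembly were lower than those for standard subunits, although Psmg1, Psmg2 and Psmg4 exceeded the lid gene Psmd11 in TPM. That order rested on the length. By principal-length TPM Psmg2 (79.2 ± 2.70) and Psmg4 (53.3 ± 2.78) were below Psmd11 (95.9 ± 2.55), and Psmg1 (96.9 ± 2.00) differed from Psmd11 by less than the spread. Of the chaperones that build the core particle, Psmg1 had 106 and 108 TPM (107 ± 1.83), its partner Psmg2 68.7 ± 2.09, Psmg4 75.9 ± 4.22 and its partner Psmg3 7.32 ± 0.173 TPM. Of those that build the base, Psmd5 had 38.7 ± 0.0107 TPM, Psmd10 (also known as gankyrin) 25.9 ± 2.01 and Psmd9 7.29 and 6.93 TPM (7.11 ± 0.252). Psmd9 and Psmg3 were the lowest of the 7 and differed by less than their spread. By principal-length TPM Psmg3 stood at 16.8 ± 0.459 and Psmd9 at 13.9 ± 0.444, the latter then the lowest.

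Proteasome partners whose symbols fall outside the rule were also expressed. All 20 listed partners that were found reached 1 CPM. The segregase gene Vcp (273 and 261 TPM) and the shuttle factor gene Rad23b (195 and 204 TPM) were the highest, and Ecpas (9.21 and 9.05 TPM) and Fbxo7 (10.4 and 10.6 TPM) the lowest. The lid component Sem1 had 42.7 and 41.6 TPM, the ubiquitin receptor Adrm1 75.9 and 73.0 TPM, and Pomp, which matures the core particle, 52.7 and 56.6 TPM. Of the 8 genes that control subunit transcription, Nfe2l1 (125 and 121 TPM) and Nfe2l2 (82.8 and 89.1 TPM) were the highest. Ngly1, which encodes the glycanase that processes NFE2L1, had 1.30 and 1.27 TPM, and its protease Ddi2 26.5 and 27.6 TPM; these were the lowest. Among 6 ubiquitin genes, Ubb (1489 and 1423 TPM) and Rps27a (1445 and 1382 TPM) led and Uba6 (33.4 and 35.8 TPM) was the lowest.

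Replicate 2 was then compared with replicate 1, which sets the error of these levels. A log2 ratio above 0 means higher in replicate 2, its SE is counting error, and a gene was called at a Benjamini-Hochberg adjusted p under 0.05 in the two-sided exact binomial test over 19078 genes with at least 10 counts. It sets reads of these libraries against each other and no conditions. Of 49 tested members 17 were called, 7 higher and 10 lower, against a background of 24.2% of all tested genes (11.2% higher, 13.1% lower). Since the test calls more among abundant genes, the closer background is that of genes with at least 1000 counts, where 39.5% were called (20.5% higher, 19.0% lower). There 15 of 40 members were called, 7 higher and 8 lower, a share near that background. The median log2 ratio of the members was 0.01 and its median size 0.07, against 0.01 and 0.09 for genes with at least 1000 counts. edgeR's exact test, which includes the spread seen between these libraries, called 0 members, against a background of 0.456% of genes (0.115% higher, 0.341% lower). At an unadjusted p under 0.05 it had 1 member, Psmb9, against 4.51% of genes.

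**Figure D3:**
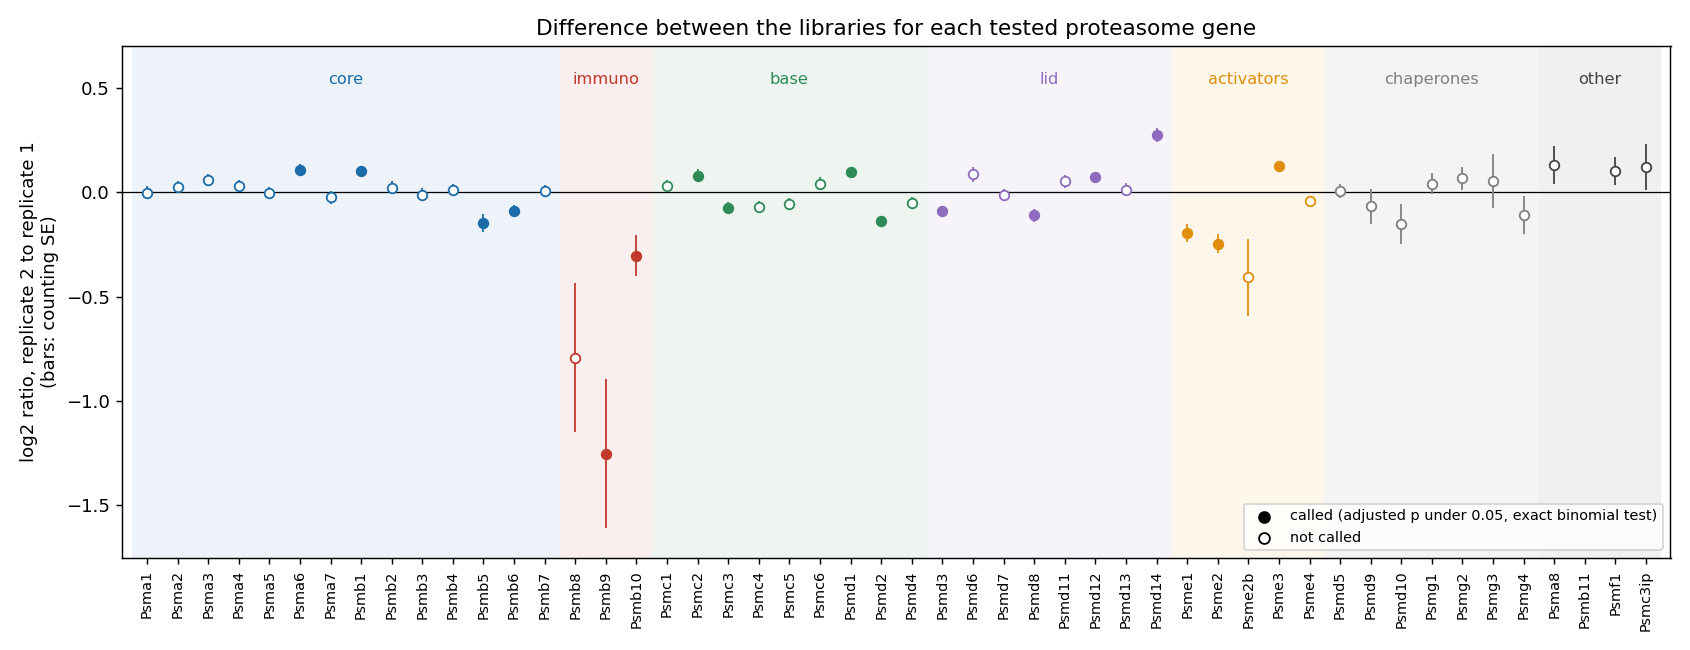
Log2 ratio of replicate 2 to replicate 1 with its counting SE for the 49 tested genes, grouped by role, with called genes filled; Psmb11 was not tested and has no point. Core, base and lid genes lie between -0.15 and 0.27, and the 3 immunoproteasome genes lie below 0, down to -1.25 for Psmb9.

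By group median, the ratios farthest from 0 were those of the immunoproteasome (-0.79) and the activators (-0.19). For scale, the 5th to 95th percentiles of the log2 ratio were -0.88 to 0.62 over all tested genes. They were -0.48 to 0.32 for genes with at least 100 counts and -0.26 to 0.23 for those with at least 1000 counts. Psmb9 lay below the first range and Psmb8 within it. Psmb10 lay within the second, and Psme1 and Psme2 within the third. All 3 immunoproteasome genes had ratios below 0, and 2 were called lower. Psmb9, at 1.78 and 0.739 CPM, had a log2 ratio of -1.25 ± 0.35 (adjusted p = 0.00193, exact binomial test). Psmb10, at 15.3 and 12.4 CPM, had a ratio of -0.30 ± 0.10 (adjusted p = 0.0108, exact binomial test). Psmb8, at 1.41 and 0.806 CPM, had a ratio of -0.79 ± 0.36 and was not called (adjusted p = 0.0896, exact binomial test). The 95% Poisson intervals of the libraries did not overlap for Psmb9 (1.37 to 2.28 and 0.463 to 1.12 CPM) and Psmb10 (14.04 to 16.7 and 11.2 to 13.8 CPM).

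Among the activators, Psme2 (-0.25 ± 0.04, adjusted p = 4.67e-07) and Psme1 (-0.19 ± 0.04, adjusted p = 7.33e-05) were lower in replicate 2 by the exact binomial test. Psme3 was higher (0.12 ± 0.03, adjusted p = 3.04e-05, exact binomial test). Psme4 (-0.04 ± 0.02) and Psme2b (-0.41 ± 0.19) were not called. In edgeR's exact test the adjusted p was 0.816 for Psmb9 and 1 for Psmb8, Psmb10, Psme1, Psme2 and Psme3.

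Genes of class I antigen presentation, the pathway that uses immunoproteasome products, were read beside them. Of 12 listed genes 5 were called lower, 1 higher and 6 neither in the exact binomial test, with a median log2 ratio of -0.25. Over all tested genes 13.1% were called lower and 11.2% higher, and among genes with at least 1000 counts 19.0% and 20.5%. The lower ones were the peptide transporter genes Tap2 (-1.40 ± 0.31, from 87 and 28 counts) and Tap1 (-0.61 ± 0.14), the class I genes H2-D1 (-0.57 ± 0.12) and H2-K1 (-0.33 ± 0.09), and Tapbp (-0.23 ± 0.05), which encodes the loading factor tapasin. Pdia3, a general folding enzyme gene, was higher (0.19 ± 0.02). Calr (815 and 818 TPM) and Pdia3 (325 and 370 TPM) were the most abundant of this list and Tap2 (1.83 and 0.684 TPM) and Nlrc5 (0.140 and 0.0435 TPM) the least; Nlrc5, the class I transactivator gene, had 15 and 4 counts and was not called. The interferon pathway gene Irf1 (-0.03 ± 0.05) was not called. edgeR's exact test called 0 of the 12.

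In the standard proteasome the differences were in both directions and, apart from that of Psmd14, small. Psmd14 had the largest positive ratio of all members, 0.27 ± 0.03 (adjusted p = 8.35e-15, exact binomial test), from 107 and 130 CPM. This ratio lay above the 5th to 95th percentile range of genes with at least 1000 counts (-0.26 to 0.23). Psmd2, from 478 and 435 CPM, was lower, with a ratio of -0.14 ± 0.02 (adjusted p = 6.79e-15, exact binomial test). Of the catalytic genes Psmb5 (-0.15 ± 0.04, adjusted p = 0.00388) and Psmb6 (-0.09 ± 0.03, adjusted p = 0.00363) were lower by the exact binomial test, and Psmb7 (0.01 ± 0.03) was not called. Psma6 (0.11 ± 0.03), Psmb1, Psmc2, Psmd1 and Psmd12 were called higher and Psmc3, Psmd3 and Psmd8 lower, each with a ratio between -0.11 and 0.11. By group, 2 of 14 core, 2 of 9 base and 2 of 8 lid genes were called in each direction. None of the 7 assembly chaperones was called, nor were Psma8 (0.13 ± 0.09), Psmf1 (0.10 ± 0.07) and Psmc3ip (0.12 ± 0.11). Of the partner genes 6 were called higher and 2 lower of 20, and of the transcription control genes 2 higher and 0 lower of 8. Among the ubiquitin genes 1 was called higher and 4 lower of 6. Beside these counts, 24.2% of all tested genes and 39.5% of those with at least 1000 counts were called in either direction.

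The ratios moved with base composition. Across the 49 tested members the Spearman rho between log2 ratio and GC content was -0.63, and across all tested genes it was -0.20. The genes share these libraries and are no independent replicates. These values of rho are not matched for counts. At least 1000 counts were reached by 40 members, but by only 8358 of all 19078 tested genes. No rho was computed for that background. Whether members followed GC content more closely than other genes with as many counts was therefore not tested. With the trend on GC content and length over all tested genes removed, the median ratio of the immunoproteasome went from -0.79 to -0.73 and that of the activators from -0.19 to -0.14. Psmb9 then stood at -1.18, Psmb8 at -0.73, Psmb10 at -0.22, Psme2 at -0.24 and Psme1 at -0.14. Psmd14 stood at 0.19, Psmb5 at -0.07 and Psmb6 at -0.06. The core particle then ran from -0.07 to 0.06, and Psmd3 (-0.09 before) stood at 0.01.

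**Figure D4:**
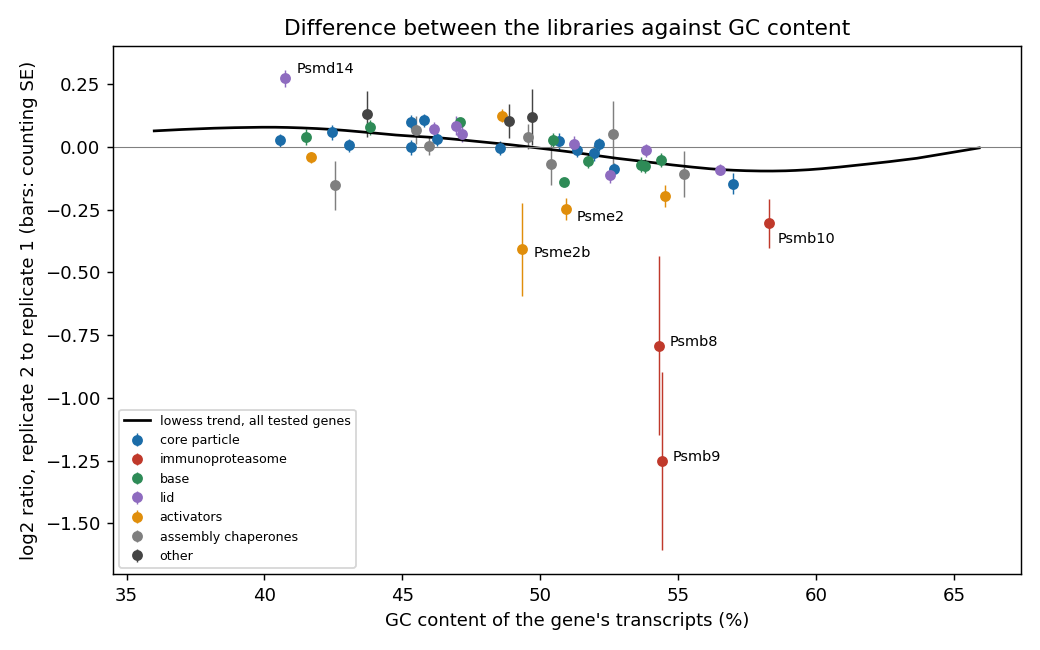
Log2 ratio of replicate 2 to replicate 1 with its counting SE against the GC content of each tested gene's transcripts, coloured by role, with the lowess trend over all tested genes as a line. Psmd14 lies above it, while Psmb9, Psmb8, Psme2b, Psme2 and Psmb10 lie below the line.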

How the data were processed

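Polyadenylated RNA of 2 libraries was analysed. TruSeq libraries were made from 1 ug of Trizol-extracted RNA and are reverse-stranded, per the labels' protocols. STAR 2.4.2a and the build mm10 (GRCm38) are named in the submitters' processing notes. How and on which annotation reads were counted, and with which strand setting, is not given in the sources used here. The deposited files hold raw counts per Ensembl gene. GENCODE M21 named 47224 of 47643 IDs; the other 419 took 0.116 and 0.124% of counts and stayed in the totals.

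CPM and TPM (with the union of exons, the mean transcript or the APPRIS principal transcript as length) were computed from the counts. Intervals are 95% exact Poisson or Clopper-Pearson. Log2 ratios used a pseudocount of 0.5 counts and edgeR 4.0.16 TMM factors (0.999 and 1.00). The exact binomial test was run with scipy 1.17.1 and tried on simulated counts that held counting error only. That trial therefore does not cover any further spread between these libraries. The dispersion of edgeR's exact test was trended and came from both libraries taken as 1 group (common biological coefficient of variation 9.99%), which contains the differences it is set against. DESeq2 1.42.0 gave alternative size factors. GC content and length were corrected by lowess (fraction 0.3, statsmodels 0.14.6). Shared sequence is the share of 50-base stretches found in transcripts of other genes on either strand.

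The members, lists, motifs and tests were chosen with earlier results of these data known. Every member was named; full values went to catalytic, activator and tissue-restricted genes, the extremes of each group and the called members with the largest ratios. Paaf1 of the partner list and Psme3ip1 were not found by symbol. The principal transcript length and the background of genes with at least 1000 counts were chosen after seeing the data. Values of 2 genes of the context lists are not reported here.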

Additional observations from a re-analysis of the deposited data

How the results depend on the processing

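No paired analysis was possible because the series holds 1 group. At 1 CPM in both libraries 47 of 50 members were counted. Thresholds of 0.5 CPM, 2 CPM and 1 TPM, and each library alone, gave 47 to 49. Of the 38 members with little shared sequence, 36 reached 1 CPM in both libraries. The level of each group moved with the length, as median log2(value + 1) in the order core particle, base, lid, activators, assembly chaperones: 7.70, 7.62, 7.37, 7.15 and 5.31 with the mean transcript length, 7.35, 7.33, 7.09, 6.15 and 4.30 in CPM, 8.07, 7.70, 7.26, 6.93 and 5.52 with the principal transcript length (an alternative chosen after seeing the data), and 7.57, 7.42, 6.95, 6.17 and 5.04 as means over members. The immunoproteasome gave 1.44 with the principal length, 2.13 as a mean, 0.0635 with a pseudocount of 0.1 and 2.74 with only members of little shared sequence, which leaves out Psmb8. With a pseudocount of 0.1 the core particle gave 7.49 and the chaperones 5.28, and with only members of little shared sequence the core particle gave 7.28, the base 7.30 and the chaperones 5.72. The libraries alone ranged from 7.50 to 7.50 for the core particle, from 7.44 to 7.52 for the base, from 6.80 to 6.88 for the lid, from 6.43 to 6.57 for the activators, from 5.31 to 5.31 for the assembly chaperones and from 0.73 to 1.23 for the immunoproteasome. The immunoproteasome share was 4.19% with the mean transcript length and 2.42% with the principal length, and 3.20 to 3.84% in the libraries alone.

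Calls between the libraries rested on the error model: edgeR's exact test called 0 members higher and 0 lower, where the exact binomial test called 7 and 10. The other scalings and count filters kept both counts within 1.5 times. The median ratio of 0.01 turned to -0.0555 as a mean and to -0.00688 without the trend on GC content and length, and Psmb7 turned from 0.01 to -0.0596 there; values this close to 0 carry no direction. The cause was not tested. Depth limits Psmb8, Psmb9 and Psmb11 most.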
